A study of Homo sapiens with 6 samples.

Results

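The data describe 4 genes of sugar breakdown, GPI, PGK1, LDHA and LDHB, out of 14884 genes read on arrays from Hs578T, a long-established human breast tumour line. Hs578T cells look mesenchymal and are negative for the oestrogen receptor. The 4 genes were taken by symbol, and each was given by a single probe set. They were chosen by the difference between siCSRP2 and siControl on these same arrays, so that difference is given below as a description, with no test. All cells were of 1 line, grown in DMEM with 10% fetal bovine serum and 0.01 mg/ml insulin, and all had passed through lipid transfection. The siCSRP2 group (3 arrays) received a small interfering RNA against CSRP2, which encodes a LIM domain protein that bundles actin, and the siControl group (3 arrays) received a non-targeting RNA. 150000 cells were plated per well, 100000 were moved to a new plate 24 h after transfection, and RNA was taken 48 h later. Total RNA was hybridised to Affymetrix HuGene 2.0 arrays, 1 array per sample. The labels do not say whether replicates were separate cultures, so p-values reflect the spread among these arrays alone, and part of it may be technical.

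Glycolysis splits glucose into pyruvate in the cytosol and yields ATP and NADH. GPI, glucose phosphate isomerase, turns the phosphorylated glucose into phosphorylated fructose near the top of the pathway, and the same protein released from cells is known as autocrine motility factor. PGK1, phosphoglycerate kinase, makes ATP in the lower part of the pathway. LDHA and LDHB encode the muscle and heart subunits of lactate dehydrogenase, which interconverts pyruvate and lactate and restores NAD+. Tumour cells often run this pathway at a high rate in the presence of oxygen, and LDHA and PGK1 are textbook targets of the hypoxia-inducible factors (HIF), which bind the core letters ACGTG or GCGTG.

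The DNA before a listed start of each gene is shown because the 4 genes were picked for a shared direction and LDHA and PGK1 are known HIF targets. Each window holds the 250 bases before a transcript start listed by RefSeq (GRCh38.p14), which for GPI lies inside the gene record, since that record begins upstream at position 34359718. The windows are printed 5′ to 3′ on the gene's strand, with ACGTG or GCGTG on either strand in capitals.
LDHA, chr11:18394313-18394562, plus strand: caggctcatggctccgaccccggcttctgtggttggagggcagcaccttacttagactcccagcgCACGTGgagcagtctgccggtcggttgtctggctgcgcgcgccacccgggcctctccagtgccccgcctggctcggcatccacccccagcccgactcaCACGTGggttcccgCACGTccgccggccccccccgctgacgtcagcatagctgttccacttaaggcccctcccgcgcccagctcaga
PGK1, chrX:78103998-78104247, plus strand: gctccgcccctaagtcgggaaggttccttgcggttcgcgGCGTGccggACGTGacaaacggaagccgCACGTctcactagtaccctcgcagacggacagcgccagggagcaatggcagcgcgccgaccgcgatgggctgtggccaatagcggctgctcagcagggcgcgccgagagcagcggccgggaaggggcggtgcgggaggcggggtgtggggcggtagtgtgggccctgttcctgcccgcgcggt
GPI, chr19:34364742-34364991, plus strand: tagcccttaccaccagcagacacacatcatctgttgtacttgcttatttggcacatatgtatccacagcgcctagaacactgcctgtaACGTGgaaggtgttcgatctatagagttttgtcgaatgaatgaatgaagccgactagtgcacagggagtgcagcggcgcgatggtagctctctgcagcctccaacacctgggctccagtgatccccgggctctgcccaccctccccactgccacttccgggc
LDHB, chr12:21657843-21658092, minus strand: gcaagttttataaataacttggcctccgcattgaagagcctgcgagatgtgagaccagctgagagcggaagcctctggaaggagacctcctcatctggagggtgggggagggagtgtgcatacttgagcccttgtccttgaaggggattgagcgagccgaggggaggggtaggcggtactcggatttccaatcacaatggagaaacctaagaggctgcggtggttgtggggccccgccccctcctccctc
The LDHA window held 3 separate stretches of these letters, starting 185, 87 and 73 bases before the start, and those at 185 and 87 bases were CACGTG, a palindrome that contains ACGTG on both strands and is also the E-box bound by MYC. The PGK1 window held 3 stretches, starting 211, 202 and 183 bases before the start. The GPI window held 1 stretch, 162 bases before that start, and LDHB held none. RefSeq lists a further LDHA start, and the window before it, chr11:18396101-18396350, held 1 stretch. For comparison, 43.2% of all 35116 such windows held at least 1 stretch, 5.56% held at least 3 and 6.34% held CACGTG. A match in these letters is no evidence of binding, and the absence of one says only that the letters are not in the window.

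All 3 siCSRP2 arrays had a higher median over all probe sets (2.80 to 2.82) and a smaller SD (1.29 to 1.32) than the siControl arrays (median 2.70 to 2.76, SD 1.35 to 1.38). siControl 3 stood apart from the other controls: its first principal component score was -2.05, beside -31.5 and -31.2 for siControl 1 and 2 while the siCSRP2 arrays had positive scores of up to 30.7. CSRP2 itself measured 3.25, 3.76 and 4.26 on siCSRP2 arrays 1 to 3, against 3.69, 4.01 and 4.35 on siControl arrays 1 to 3. The groups overlapped and at -0.26 the difference missed the threshold (adjusted p = 0.583 in limma), though within each of the 3 pairs of equal replicate number the siCSRP2 array had the lower value. With replicate number added to the fit as a block, the limma adjusted p was 0.188, so the target does not check the labels. Of 7 measured markers of a mesenchymal line all lay above the median of gene means (2.99), while ESR1 and PGR, which the line is known to lack, had means of 2.67 and 2.49. Of 7 measured markers expected to be low, however, 3 lay above that median. These were CLDN3 (3.99), GATA3 (3.74) and EPCAM (3.28). CLDN3 differed most between the groups (0.33, limma adjusted p = 0.0919) and rose past the threshold after quantile normalization or cyclic loess. The 7 mesenchymal markers were all lower in siCSRP2, as the enzymes were, with a median difference of -0.59. In limma 4 of these 7 fell, beside 6.54% of all genes and 14.6% of the brightest 10%. They were the receptor AXL (-1.73), the transcription factor SNAI2 (-1.21), the intermediate filament VIM (-0.82) and fibronectin, FN1 (-0.59), at adjusted p of up to 0.0394. None of the 7 rose there or at an unadjusted p under 0.05. After quantile normalization or cyclic loess 3 fell, without SNAI2. Leaving out 1 array gave 0 falls without siControl 2, 1 without siControl 1 or siCSRP2 3 and 2 without siCSRP2 2, and AXL passed in 5 of the 6 such fits. Their part in the enzymes' values was not tested. Of 4 measured markers of leukocytes, vessels and pericytes (CD68, PECAM1, VWF and RGS5) none passed the test in limma, and 1, CD68, was higher at an unadjusted p under 0.05. CD68 was bright (mean 7.92) and differed by 0.64, with overlapping groups (limma adjusted p = 0.0778). It rose past the threshold with array weights, with quantile normalization and the replicate block, and without siControl 3. PECAM1, VWF and RGS5 were dim, with means of 2.53 to 2.91. The mean log2 level of those 4 was 3.92 to 4.12 on siCSRP2 arrays and 3.88 to 4.02 on siControl arrays. In RNA of whole cultures, fewer cells of a kind and less RNA per cell cannot be told apart.

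GPI measured 6.48, 6.50 and 6.48 on siCSRP2 arrays 1 to 3, against 7.23, 7.34 and 7.10 on siControl arrays 1 to 3, on the deposited log2 scale. The siCSRP2 values lay within 0.015 of each other, and the groups were parted by 0.60, a gap wider than the range of the siControl values (0.24). The means were 6.49 ± 0.0088 in siCSRP2 and 7.22 ± 0.12 in siControl (SD, n = 3 each), a log2 difference of -0.73 (SE 0.11), or 1.66-fold lower in siCSRP2. Of the 4 genes, GPI had the widest gap between the groups.

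LDHB measured 4.86, 4.63 and 4.57 on siCSRP2 arrays 1 to 3, against 5.53, 5.54 and 4.99 on siControl arrays 1 to 3. Its groups did not overlap either, but siControl 3 sat only 0.13 above the highest siCSRP2 array. The means were 4.69 ± 0.15 in siCSRP2 and 5.35 ± 0.31 in siControl (SD, n = 3 each), a log2 difference of -0.66 (SE 0.17), or 1.59-fold lower. Without siControl 3 the difference was -0.85.

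LDHA measured 7.28, 7.27 and 7.46 on siCSRP2 arrays 1 to 3, against 7.60, 7.69 and 7.96 on siControl arrays 1 to 3. Here siControl 3 was the highest array, and the lowest siControl array lay 0.13 above the highest siCSRP2 array. The means were 7.34 ± 0.11 in siCSRP2 and 7.75 ± 0.19 in siControl (SD, n = 3 each), a log2 difference of -0.41 (SE 0.13), or 1.33-fold lower. Without siControl 3 the difference was -0.30.

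PGK1 measured 6.36, 6.46 and 6.60 on siCSRP2 arrays 1 to 3, against 6.64, 6.91 and 7.42 on siControl arrays 1 to 3. The groups were parted by only 0.042, and siControl 3 was again the highest array. The means were 6.47 ± 0.12 in siCSRP2 and 6.99 ± 0.40 in siControl (SD, n = 3 each), a log2 difference of -0.52 (SE 0.19), or 1.43-fold lower. Without siControl 3 the difference was -0.30, over 1.5 times smaller on the log2 scale.

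**Figure D1:**
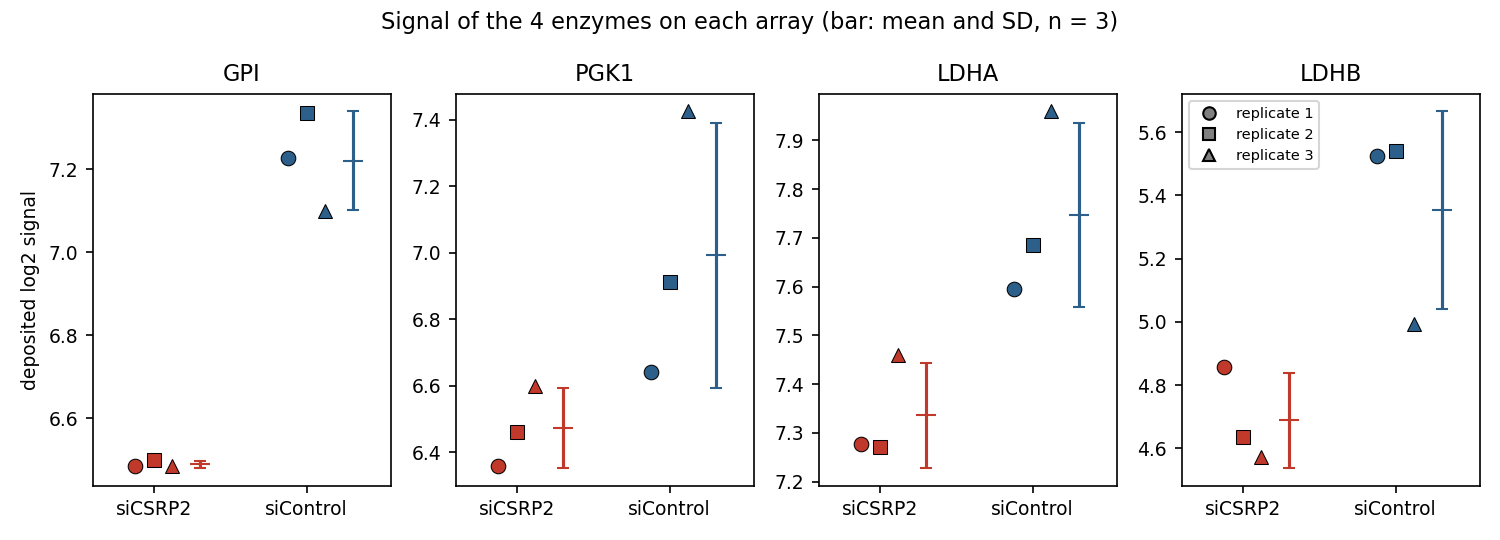
Deposited log2 signal (vertical axes, each gene on a scale of its own that does not start at 0) of GPI, PGK1, LDHA and LDHB on each siCSRP2 array (left) and siControl array (right), with marker shapes for replicate numbers and the mean and SD of 3 arrays beside them. The groups do not overlap for any of the 4 genes. siControl 3 is the highest control for PGK1 (7.42) and LDHA (7.96) and the lowest for GPI (7.10) and LDHB (4.99).

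The values that led to the choice of these genes came from this same contrast, so no p-value is given for them. Over all 14884 genes, 6.54% fell and 0.8% rose in the fit without the block, 13.1% fell with it, and 16.2% had siCSRP2 values all below the siControl values. Nothing is read from the members' own count against these shares. Between arrays of equal replicate number (1, 2 and 3), siCSRP2 minus siControl was -0.74, -0.84 and -0.61 for GPI and -0.67, -0.91 and -0.42 for LDHB. For LDHA it was -0.32, -0.42 and -0.50, and for PGK1 -0.28, -0.45 and -0.83. All 3 pairs were lower in siCSRP2 for each gene, as any pairing must be where the groups do not overlap.

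Among the siControl arrays PGK1 and LDHA shared their order, and so did GPI and LDHB, and the pairs parted most on siControl 3. Among the siCSRP2 arrays PGK1 and LDHA were both highest on array 3. There GPI values lay within 0.015 of each other, while LDHB was 0.17 above its group mean on array 1, so GPI and LDHB shared no clear order. PGK1 and LDHA correlated at r = 0.96 over the 6 arrays, and at r = 0.95 once each value was taken as its deviation from its group mean. GPI and LDHB correlated at r = 0.92, and at r = 0.80 as deviations. Across the pairs the deviations ran in opposite directions, from r = -0.65 (GPI and PGK1) to r = -0.92 (PGK1 and LDHB). These values share arrays and are descriptions without a p-value. For each of the 4 genes siControl 3 was the array farthest from its group mean: it lay 0.43 (PGK1) and 0.21 (LDHA) above its group mean and 0.12 (GPI) and 0.36 (LDHB) below it.

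The lactate dehydrogenase subunits belong to different pairs, so their balance moved between arrays. The gap between their signals is no ratio of transcripts, since probe sets differ in brightness, and only its change between arrays is read. LDHA exceeded LDHB by 2.42, 2.64 and 2.89 on siCSRP2 arrays 1 to 3 and by 2.07, 2.14 and 2.97 on siControl arrays 1 to 3. The groups overlapped on this measure, and the mean gap was 0.25 wider in siCSRP2.

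**Figure D2:**
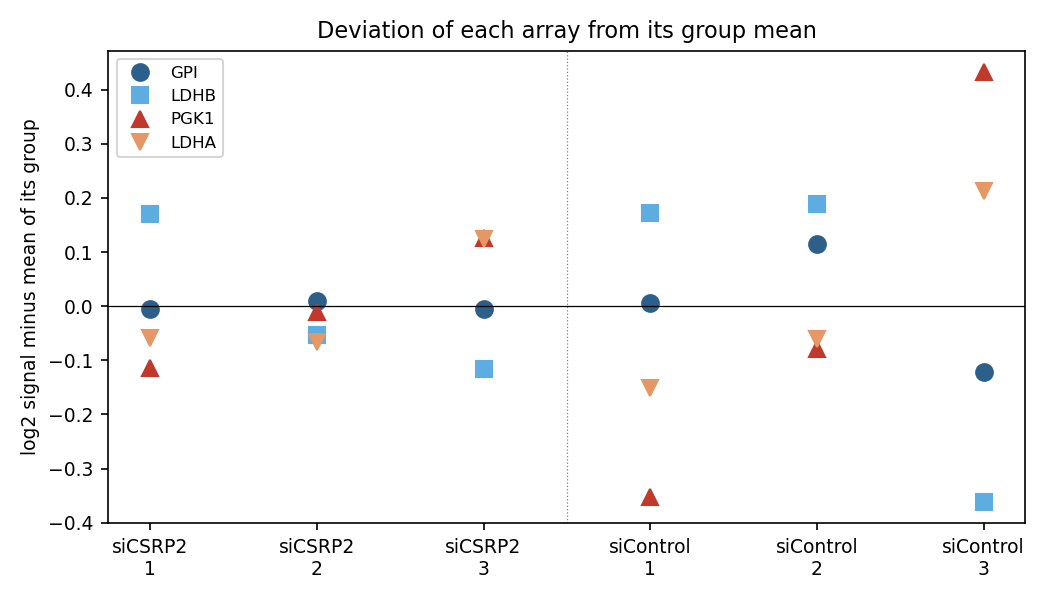
Deviation of each array from the mean of its group in log2 units (vertical axis) for GPI, LDHB, PGK1 and LDHA on the 3 siCSRP2 arrays (left) and the 3 siControl arrays (right). On siControl 3, PGK1 (0.43) and LDHA (0.21) lie above their group mean, while GPI (-0.12) and LDHB (-0.36) lie below it.

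HIF targets outside glycolysis were followed on the same arrays, with 16 of 21 listed genes measured. Relative to each gene's siControl mean, the median of this list was 0.16, 0.039 and -0.096 on siCSRP2 arrays 1 to 3 and -0.35, -0.21 and 0.48 on siControl arrays 1 to 3. siControl 3, the array on which PGK1 and LDHA were highest, was thus also the highest for this list. In the comparison of the groups 1 of the 16 fell, STC2, a secreted glycoprotein (log2 difference -0.48, limma adjusted p = 0.0315), and none rose (1 at an unadjusted p under 0.05), with a median difference of 0.059. Over all genes 6.54% fell, as did 14.6% of the brightest 10%, where most of the 16 lie, so this count is no result about the list. KDM3A, a histone demethylase, measured 6.24, 6.23 and 6.18 on siCSRP2 arrays 1 to 3, against 5.07, 5.05 and 6.12 on siControl arrays 1 to 3, and did not pass in the fit without a block, but did with the replicate block (0.80, limma adjusted p = 0.0395), with array weights and without siControl 3. Without siControl 3 the list had 3 rises and 1 fall, with a median of 0.24, and STC2 passed in no other fit that left 1 array out but that without siCSRP2 1. After quantile normalization, cyclic loess or a trended robust fit none of the 16 passed. The part of HIF in the PGK1 and LDHA values was not tested.

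The genes whose signal followed each enzyme most closely over the 6 arrays were sought among 7441 others above the median brightness. GPI was matched most closely by EMC2, ACER3 and HSDL2 (r = 0.999, 0.999 and 0.998), and 436 genes had r above 0.95. EMC2 belongs to a membrane protein insertase of the endoplasmic reticulum and ACER3 is a ceramidase. LDHB was matched by CCN4, a matricellular Wnt target, by EMP2, a membrane protein, and by NOB1, a ribosome assembly factor (r = 0.999, 0.998 and 0.998), with 663 genes above 0.95. LDHA was matched by VPS13A, STK24 and KLHL5 (r = 1.00, 0.992 and 0.991), with 30 genes above 0.95, and PGK1 by TEX30, HNRNPH1 and NBEA (r = 0.997, 0.981 and 0.980), with 20 above 0.95. With only 6 arrays in 2 groups, many genes reach such values, and the difference between groups enters each r.

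GPI, PGK1 and LDHA were in the brightest 10% of genes by mean signal (the tenth decile) and LDHB in the ninth decile. Bright genes were shifted as a whole: the median difference was -0.11 in the brightest decile and -0.25 in the ninth, against 0.067 in the dimmest, and 14.6% of genes in the brightest and 19.0% in the ninth decile fell. The lower quartile was -0.42 in the brightest decile and -0.56 in the ninth. GPI (-0.73), PGK1 (-0.52) and LDHB (-0.66) lay below the lower quartile of their decile, and LDHA (-0.41) lay just above it. These genes were chosen by this same difference, so their place against the quartiles is a description and nothing is read from it. After quantile normalization the differences were -0.65 for GPI, -0.44 for PGK1, -0.33 for LDHA and -0.49 for LDHB.

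**Figure D3:**
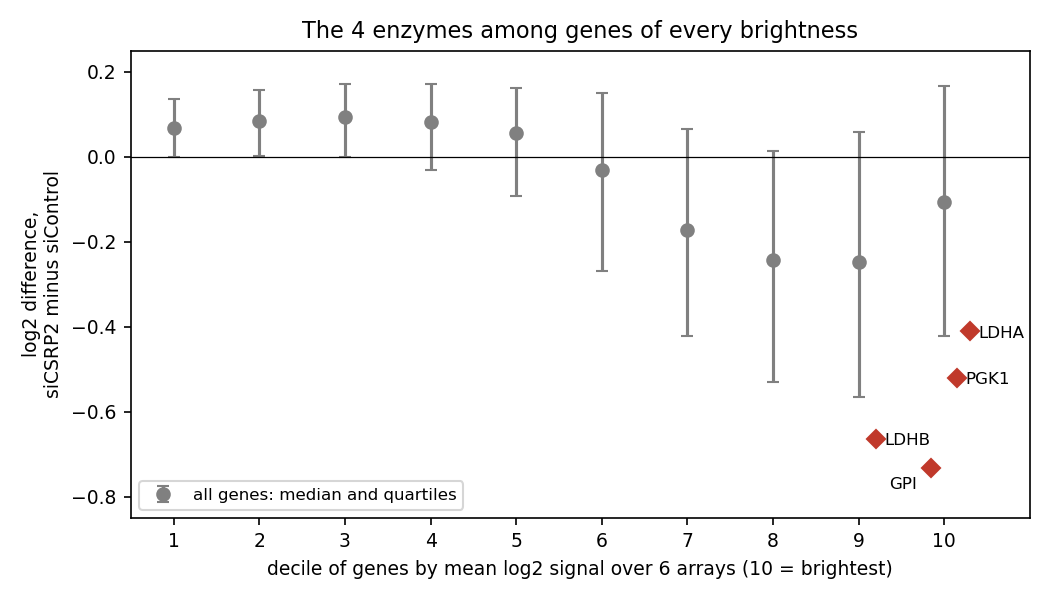
Log2 difference, siCSRP2 minus siControl (vertical axis), of all genes by decile of mean log2 signal (horizontal axis, 10 the brightest), as the median with quartiles in grey, and of the 4 enzymes as diamonds. The median is 0.067 in the dimmest decile and -0.11 in the brightest, and GPI lies lowest of the 4 at -0.73.

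Among the measured enzymes of glycolysis that were not chosen on this contrast, none passed the threshold in the main fit. The chosen enzymes were given no test, so this result does not set them apart from the rest. Of 30 further enzymes and isoforms listed, 14 were measured; 0 rose and 0 fell in limma, with or without the replicate block, and at an unadjusted p under 0.05 none rose and 2 fell. PKM, ENO1, ALDOA and the PFK genes had no named probe set and were not analysed here. The median difference of the 14 was -0.0093, beside 0.019 over all genes. For the 6 of them above the median of gene means it was -0.028, beside -0.15 for all genes above that median. 8 of the 14 were below the median of gene means (2.99) and are isoforms of other tissues or little known relatives. GAPDH, which oxidises triose phosphate, averaged 6.38 ± 0.050 in siCSRP2 and 6.74 ± 0.25 in siControl (SD, n = 3 each), with no overlap, a log2 difference of -0.35 (SE 0.14) and a limma adjusted p of 0.161.

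PGAM1, phosphoglycerate mutase, measured 4.72, 4.81 and 4.66 on siCSRP2 arrays 1 to 3, against 4.84, 5.12 and 5.06 on siControl arrays 1 to 3, also without overlap (-0.28, SE 0.12, limma adjusted p = 0.192). Its near-identical copy PGAM4 differed by 0.35 with overlapping groups, and probes for such copies, as for GAPDH and its pseudogenes, can share signal. Of the 14 enzymes 2, GAPDH and PGAM1, were lower without overlap, beside 16.2% of all genes. That share was 27.9% in the brightest decile, which holds GAPDH, and 35.3% in the ninth, which holds PGAM1. The lack of overlap is thus no result about these enzymes. Triose phosphate isomerase, TPI1, differed by -0.11 (95% interval -0.51 to 0.29) and hexokinase 1, HK1, by 0.055 (-0.21 to 0.32).

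Hexokinase 2, HK2, which traps glucose in the cell and is a HIF target, ran apart from the others. It measured 6.53, 7.03 and 6.68 on siCSRP2 arrays 1 to 3, against 5.19, 6.04 and 7.38 on siControl arrays 1 to 3. The siCSRP2 values all lay above siControl 1 and 2 and below siControl 3, and the difference of 0.54 did not pass (SE 0.46, limma adjusted p = 0.515). Without siControl 3 HK2 rose and GAPDH fell, the only 2 of the 14 to pass in that fit. HK3, HKDC1, PGK2, PGAM2, LDHC, LDHAL6A, LDHAL6B and LDHD had means of 2.25 to 2.82 and differences of -0.17 (LDHD) to 0.097 (LDHC).

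**Figure D4:**
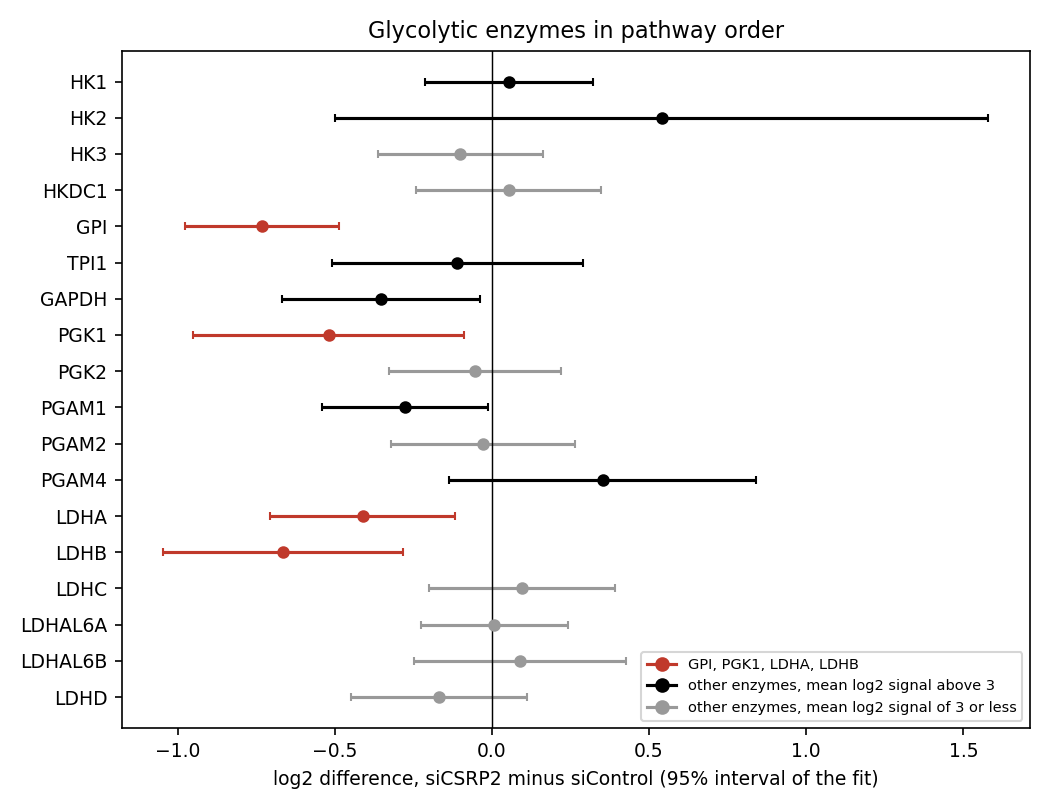
Log2 difference, siCSRP2 minus siControl, with its 95% interval (horizontal axis) for the 18 measured enzymes of glycolysis in pathway order from top to bottom. GPI, PGK1, LDHA and LDHB, in red, were chosen for their differences. The intervals of GAPDH and PGAM1 also lie below 0, at unadjusted confidence, and that of HK2 is the widest (-0.50 to 1.58).

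Genes of the routes that carry pyruvate and sugar phosphates onward were counted next. Their shares of falls are read against 6.54% of all genes, and against 10.1% to 19.0% of genes in the 4 brightest deciles, where most genes of these lists lie, so that counts of 1 or 2 per list are no result about these pathways. Of 10 measured genes of pyruvate's entry into mitochondria 2 fell, none rose and 8 did not pass, with a median of -0.29. PDHB, a subunit of pyruvate dehydrogenase, averaged 4.33 ± 0.027 in siCSRP2 and 5.09 ± 0.39 in siControl (SD, n = 3 each; log2 difference -0.77, limma adjusted p = 0.0426). PDPR, a regulator of the phosphatase that switches this enzyme on, differed by -0.52 (limma adjusted p = 0.0467). DLD and DLAT, further catalytic parts of the complex, missed the threshold narrowly (-0.93 and -0.96, limma adjusted p = 0.0502 and 0.0512) and passed with the replicate block (0.0058 and 0.00975). After quantile normalization or cyclic loess 1 of the 10, PDPR, passed. In the citric acid cycle 1 of 7 fell, citrate synthase, CS (-0.61, limma adjusted p = 0.0376), none rose there or at an unadjusted p under 0.05, and after quantile normalization or cyclic loess none of the 7 passed. Without siControl 3 there were 5 falls among the pyruvate genes and 3 in the cycle, and with any other array left out at most 1 and 0.

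GPI shares its substrate with glycogen synthesis and the pentose phosphate pathway. GYS1, muscle glycogen synthase, measured 4.01, 4.32 and 3.66 on siCSRP2 arrays 1 to 3, against 5.57, 5.80 and 5.37 on siControl arrays 1 to 3. It fell 3.0-fold (log2 difference -1.58, SE 0.18, limma adjusted p = 0.00497), the largest difference in size among the lists of sugar metabolism examined here, and it passed in each of the 6 fits that left 1 array out. Of 13 measured genes of the side branches of glycolysis 2 fell, GYS1 and PSPH, the phosphatase that completes serine synthesis (-0.87, limma adjusted p = 0.038, and past the threshold in 2 of those 6 fits), and none rose (4 at an unadjusted p under 0.05). With the replicate block SHMT1 (-0.78) and PGM2 (-0.61) also fell and UAP1 rose (0.72), at limma adjusted p of 0.0235, 0.00894 and 0.0484. SHMT1 is the cytosolic serine hydroxymethyltransferase, PGM2 a phosphoglucomutase and UAP1 the enzyme that makes UDP-N-acetylglucosamine. Of 9 measured pentose phosphate genes 2 fell, transaldolase, TALDO1 (-1.34, limma adjusted p = 0.0103), and transketolase, TKT (-0.50, limma adjusted p = 0.0496), and none rose (1 at an unadjusted p under 0.05). PRPS1, which makes phosphoribosyl pyrophosphate, was added by the block (-0.61, limma adjusted p = 0.0126). Without siControl 3 this list had 5 falls, without siControl 1 or siControl 2 it had 0, and after quantile normalization or cyclic loess 1, TALDO1.

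Of the genes that handle the cytosolic NADH which lactate dehydrogenase would otherwise consume, 3 were measured and 1 fell, the mitochondrial glycerol phosphate dehydrogenase GPD2. It averaged 4.31 ± 0.13 in siCSRP2 and 5.24 ± 0.16 in siControl (SD, n = 3 each; log2 difference -0.93, limma adjusted p = 0.00833). Lactate carriers need a partner protein to reach the membrane. Of those partners embigin, EMB, fell 2.46-fold, to 3.21 ± 0.27 in siCSRP2 against 4.51 ± 0.30 in siControl (SD, n = 3 each; log2 difference -1.30, limma adjusted p = 0.00926), while basigin, BSG, differed by -0.11 (95% interval -0.37 to 0.16). GPD2 passed in 5 of the 6 fits that left 1 array out (not without siControl 2) and EMB in 4 (not without siControl 2 or siCSRP2 2). The carriers themselves and the glucose transporters listed had no named probe set and were not analysed here. None of 4 measured genes of glycolytic flux control and gluconeogenesis passed in limma, nor at an unadjusted p under 0.05, and PCK2 differed most (-0.39, adjusted p = 0.331).

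**Figure D5:**
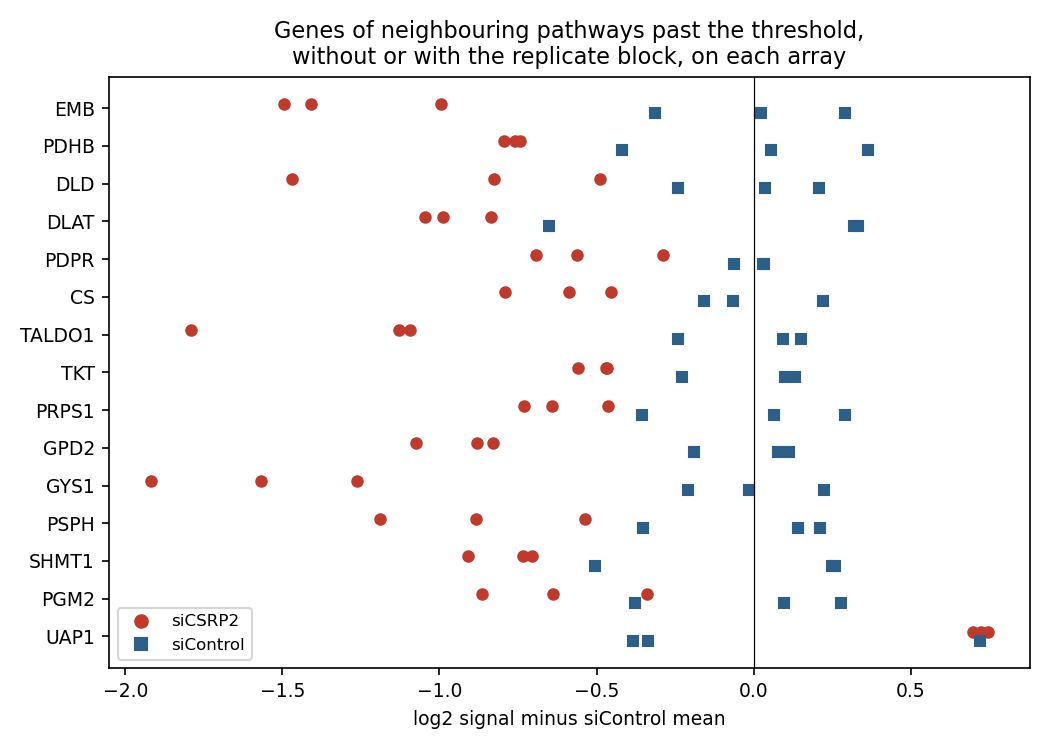
Log2 signal minus the siControl mean (horizontal axis) on each siCSRP2 array (red circles) and each siControl array (blue squares) for 15 genes of neighbouring pathways that passed the threshold without or with the replicate block. GYS1 lies farthest left (-1.58 on average), and UAP1 is the only one of the 15 that was higher in siCSRP2, with siControl 3 among the siCSRP2 values.

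Of 11 measured regulators of glycolytic genes 2 fell, none rose (1 at an unadjusted p under 0.05) and 9 did not pass. Over all genes 6.54% fell, and 10.1% to 19.0% in deciles 7 to 10, where most of the 11 lie, so this count is no result about the list. EPAS1, which encodes the HIF-2 alpha subunit, measured 4.87, 5.03 and 4.71 on siCSRP2 arrays 1 to 3, against 5.42, 5.82 and 5.81 on siControl arrays 1 to 3 (log2 difference -0.81, limma adjusted p = 0.0172). EGLN1, the oxygen-sensing hydroxylase that marks HIF for destruction, differed by -0.51 (limma adjusted p = 0.0305). TXNIP, an inhibitor of glucose uptake, missed the threshold narrowly (-0.49, limma adjusted p = 0.0526) and passed with the replicate block (0.0227) and after quantile normalization, cyclic loess or a trended robust fit, in which EGLN1 did not pass. EPAS1 passed in 3 of the 6 fits that left 1 array out, without siCSRP2 1, siControl 1 or siControl 3, and EGLN1 in 1, without siControl 3. MYC was the regulator that was higher at an unadjusted p under 0.05. It measured 5.87, 5.88 and 5.74 on siCSRP2 arrays 1 to 3, against 4.97, 5.09 and 5.80 on siControl arrays 1 to 3. Its difference of 0.54 did not pass (limma adjusted p = 0.147), but did with array weights and without siControl 3. The part of MYC in the enzymes' values was not tested. HIF1A had no named probe set and was not analysed here.

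Proliferation markers moved with the same arrays: of 8 measured, 7 fell in limma, with a median difference of -1.25 and adjusted p of up to 0.0469. Over all genes 6.54% fell, and 10.1% to 19.0% in deciles 7 to 10, where the 8 markers lie. The 7 that fell were TYMS (-1.63), CCNA2 (-1.51), TOP2A (-1.36), PLK1 (-1.27), FOXM1 (-1.23), MCM4 (-1.20) and PCNA (-1.17). MKI67 (-0.66, limma adjusted p = 0.109) passed with the replicate block (0.0233). The mean log2 level of the 8 was 3.71 to 4.27 on siCSRP2 arrays and 4.56 to 5.47 on siControl arrays, lowest among controls on siControl 3. siControl 3 was also the lowest control for GPI and LDHB and the highest for LDHA and PGK1. Without siControl 3 all 8 fell, with any other array left out at most 2, and after quantile normalization or cyclic loess 4. Whether growth state had a part in the enzymes' values was not tested. Over all genes 974 fell and 119 rose, and after quantile normalization 659 fell and 210 rose.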

How the data were processed

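RNA of 6 Hs578T samples was measured on 6 arrays, 3 per group. Per probe set and array the authors deposited 1 signal, taken to be log2 from its range (1.26 to 13.4). The submitters' processing notes name Partek. How background was corrected, arrays normalized and which build was used is not given in the sources used here, and no detection calls were used, so a dim probe set has no marked limit. Precision is bounded by having 3 arrays a group.

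Of 53617 probe sets, 16098 had 1 gene symbol in the platform annotation, 0 had several and 37519 had none there. All 16098 identifiers matched RefSeq genes (GRCh38.p14), used for symbols. The probe set with the highest mean stood for each gene. Groups, taken from the titles, entered a two-sided limma fit (version 3.58.1, R 4.3.3, lmFit then eBayes) with group as its only term, and p-values were adjusted by Benjamini-Hochberg across the 14884 genes, with calls made under 0.05. The fit was tested on simulated data. No set test was run.

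The members and gene lists were chosen with earlier results of these data known. Named genes are the 4 enzymes, CSRP2, every measured glycolysis gene, list members past the threshold without or with the replicate block (otherwise the one that differed most), and the 3 genes most correlated with each enzyme. VIM, FN1, ESR1, PGR, GATA3, EPCAM and the 4 other cell type markers came from the marker lists. MYC was added as the regulator that was higher before adjustment.

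Replicate numbers are shared by the groups. Deviations from group means correlated at 0.30, 0.19 and 0.32 between same-numbered arrays and at -0.26 to 0.052 otherwise. On that evidence, since the labels are silent, arrays of equal number were paired in the fits with the replicate block and in the differences by replicate number. The main fit ignored this pairing, and calls are from that fit unless another is named. Alternatives were the replicate block, quantile, cyclic loess and median scaling, filters on dim genes, other uses of probe sets, array weights, a trended robust fit and leaving out each array.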

Additional observations from a re-analysis of the deposited data

How the results depend on the processing

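The 4 enzymes were lower in siCSRP2 under each of 17 alternatives, with log2 differences of -0.82 to -0.64 for GPI, -0.70 to -0.30 for PGK1, -0.50 to -0.30 for LDHA and -0.85 to -0.49 for LDHB. Several alternatives could not change these differences. They were the replicate block, which is balanced over the groups, and the other uses of probe sets, since each gene had 1. The filters on dim genes and the trended robust fit also left the values of each gene as they were. Leaving out or weighting arrays could not reverse the sign of these differences, since the groups did not overlap for any of the 4 genes. Only the quantile, cyclic loess and median scalings could have done so. The genes were also chosen on this contrast, so their shared direction is a description. GPI moved by more than its small replicate spread after cyclic loess (-0.64) and median centring (-0.82). With 1 array left out, the ranges were -0.79 to -0.67 for GPI, -0.70 (without siControl 1) to -0.30 (without siControl 3) for PGK1, -0.49 to -0.30 for LDHA and -0.85 (without siControl 3) to -0.57 (without siControl 2) for LDHB.

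The number of genes past the threshold was 1093 as reported, 2348 with the replicate block, 2007 with quantile normalization and the replicate block, 506 of 53617 when every probe set was tested, 2924 with array weights, and between 91 (without siControl 2) and 2620 (without siControl 3) with 1 array left out; it was 157 without siControl 1, 194 without siCSRP2 2 and 285 without siCSRP2 3. After cyclic loess 687 fell and 197 rose. Of the 14 other glycolytic enzymes 0 passed as reported, 1 with array weights (GAPDH) and 0 to 2 with 1 array left out. Their median difference was -0.095 after median centring, 0.0081 without the dimmest 25% of genes, 0.017 with array weights and between -0.045 and 0.035 with 1 array left out. Counts for neighbouring lists under other settings were added after seeing the data. When every probe set was tested, GYS1, GPD2, EMB, TALDO1 and AXL still passed among the genes named from the neighbouring and marker lists, and none of the others did. The cause of these shifts was not tested. No background value limits how dim a signal can be read.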
